A study of Homo sapiens with 8 samples.

Results

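A set of 10 genes tied to FOXO transcription factors and to energy stress was followed in MDA-MB468 and BT549 cells: DDIT4, TXNIP, ARRDC3, ARRDC4, KLHL24, SESN1, SESN3, FOXO1, FOXO3 and IRS2. The genes were taken by symbol from the count table, 10 of 55679 gene identifiers, and were chosen with earlier results of these data known. For that reason their levels and ratios are given as a description with no p-value. The fits across all genes included 9 of them, and their calls are counted but support nothing. Of the 10, 9 had a mean of at least 1 CPM (count per 1000000 counts on genes) over the libraries, a level reached by 14030 genes, and ARRDC4 did not.

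The study asked which RNAs changed with Acetalax (oxyphenisatin acetate) in cells that are sensitive to it and in cells that have become resistant. RNA-seq was made from MDA-MB468 and BT549, established human cell lines of triple-negative breast cancer (TNBC). Parental cells of each line were compared with chronic exposure (CE) cells, which the submitters call resistant clones. The CE cells had been passaged in rising Acetalax and were those chronically exposed to 40 μmol/L, then kept without drug for 2 weeks. Parental and CE cells were each sequenced as a control culture and after 6 hours with 1 μmol/L Acetalax, which gives 8 libraries, 1 per condition. No condition had a replicate, so the Acetalax comparison was replicated only over the 4 backgrounds (2 lines, each parental and CE). The CE cells of a line were derived from that line, so the 4 backgrounds are not independent. A CE culture of a line stands for 1 selection.

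FOXO1 and FOXO3 are forkhead transcription factors that enter the nucleus when AKT, the kinase downstream of insulin and growth factor receptors, is inactive, and they then switch on genes of stress resistance and growth restraint. IRS2, SESN1, SESN3 and KLHL24 have been described among FOXO-responsive genes, and IRS2 in turn couples the insulin receptor to AKT. DDIT4 (REDD1) and the sestrins restrain mTORC1, the kinase complex that drives cell growth. TXNIP, ARRDC3 and ARRDC4 are α-arrestins, adaptors that bring ubiquitin ligases to membrane proteins, and TXNIP and ARRDC4 are known targets of the glucose-sensing factor MondoA with its partner MLX.

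Each library held between 42261122 and 54241728 counts on genes, a 1.28-fold range, so that 1 CPM stands for 42.3 to 54.2 counts and the limit set by a count of 0 (3 counts) lies between 0.0553 and 0.0710 CPM. All intervals below are 95% intervals of counting error (Wilson for a level, exact conditional binomial for a ratio) and hold no variation between cultures. The summed CPM of 5 epithelial markers (EPCAM, CDH1, KRT8, KRT18, KRT19) lay between 5028 and 7689 in the MDA-MB468 libraries and between 5.75 and 87.5 in the BT549 libraries. The sum of 5 mesenchymal markers (VIM, CDH2, FN1, ZEB1, SPARC) was 15.6 to 55.7 CPM in MDA-MB468 and 3704 to 5071 CPM in BT549, and 6 blood and endothelial markers summed to at most 1.53 CPM in any library. The 3 receptors whose absence defines TNBC (ESR1, PGR, ERBB2) summed to 41.2 to 100.3 CPM, and PGR had 0 counts in every MDA-MB468 library.

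Positions are those of the GENCODE annotation lifted to hg19. DDIT4 lies at chr10:74033678-74035794 on the plus strand, ARRDC4 at chr15:98503933-98517063 (plus), KLHL24 at chr3:183353398-183402307 (plus) and FOXO3 at chr6:108881038-109005977 (plus). On the minus strand are ARRDC3 at chr5:90664448-90679134, SESN1 at chr6:109305512-109416049, SESN3 at chr11:94898677-94965705, FOXO1 at chr13:41129804-41240778 and IRS2 at chr13:110405042-110438930. TXNIP was deposited on a patch sequence, and the annotation places the same identifier at chr1:145438490-145442635 (plus). Exons of an opposite-strand gene cover 2.91% of the merged exons of ARRDC3, 4.99% of those of SESN1, 0.93% of those of SESN3 and 1.41% of those of IRS2. A same-strand gene that the count table does not list covers 22.7% of the exons of FOXO1. FOXO3 has a near-identical copy, FOXO3B, with 1.13 to 2.04 CPM in MDA-MB468 and 6.09 to 11.2 CPM in BT549, so the FOXO3 counts are uncertain to the extent that reads were shared out between them.

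Promoter sequence is shown for DDIT4, ARRDC3, TXNIP and IRS2, the 4 genes whose mean reached 1 CPM and whose ratios under Acetalax had the same sign wherever a ratio could be formed. The windows are the 250 bases before an annotated start, 5′ to 3′ on the gene's strand, from RefSeq on GRCh38.p14. Capitals mark the letters GTAAACA or its reverse complement (a core that FOXO factors bind) and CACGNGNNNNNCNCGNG (a carbohydrate response element, ChoRE, the element of MondoA and MLX). The windows are chr1:145996580-145996829 (minus) for the first annotated start of TXNIP, chr5:91380098-91380347 (minus) for the second annotated start of ARRDC3, chr10:72273674-72273923 (plus) for DDIT4 and chr13:109786584-109786833 (minus) for IRS2.
TXNIP: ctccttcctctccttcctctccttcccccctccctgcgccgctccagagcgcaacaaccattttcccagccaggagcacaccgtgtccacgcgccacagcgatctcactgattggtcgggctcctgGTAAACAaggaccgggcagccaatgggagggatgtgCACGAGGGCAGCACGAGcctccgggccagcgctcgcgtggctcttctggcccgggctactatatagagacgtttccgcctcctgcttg
ARRDC3: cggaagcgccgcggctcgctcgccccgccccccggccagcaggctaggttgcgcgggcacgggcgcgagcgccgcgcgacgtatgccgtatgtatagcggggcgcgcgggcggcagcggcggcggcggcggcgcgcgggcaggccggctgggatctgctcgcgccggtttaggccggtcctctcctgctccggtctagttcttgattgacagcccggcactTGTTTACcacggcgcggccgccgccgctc
DDIT4: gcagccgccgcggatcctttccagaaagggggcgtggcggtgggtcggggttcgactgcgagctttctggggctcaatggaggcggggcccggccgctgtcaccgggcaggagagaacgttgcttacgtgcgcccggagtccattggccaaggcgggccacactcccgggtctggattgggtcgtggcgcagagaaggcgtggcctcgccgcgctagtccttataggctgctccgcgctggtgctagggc
IRS2: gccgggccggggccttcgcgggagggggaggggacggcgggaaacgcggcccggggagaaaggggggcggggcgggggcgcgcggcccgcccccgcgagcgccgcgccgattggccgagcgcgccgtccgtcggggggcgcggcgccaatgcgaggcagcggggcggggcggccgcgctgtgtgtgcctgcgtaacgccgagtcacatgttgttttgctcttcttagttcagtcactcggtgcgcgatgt
In the TXNIP window the FOXO core lies 124 to 118 bases before the start and the ChoRE 88 to 72 bases before it. The same window holds 1 match to GNACANNNTGTNC, the element of the glucocorticoid receptor, 175 to 163 bases before the start (left in lower case). In ARRDC3 the FOXO core lies 29 to 23 bases before the second start, and the window of its first start (chr5:91383318-91383567) holds none of these motifs. The window of the second TXNIP start (chr1:145995745-145995994) holds none of them either. Over the 17 windows of the 10 genes, searched on both strands, the FOXO core was found in TXNIP and ARRDC3 only, the ChoRE in TXNIP only and the E-box CACGTG, the related motif of MLX and other factors, in ARRDC4 only. Neither TGACGTCA, the cyclic AMP response element, nor TATAAA was found in any of the 17. Of all 27305 genes with such a window, 3.66% had the FOXO core, 7.73% the E-box, 0.527% the ChoRE and 0.399% the glucocorticoid element. Only the letters given were searched, so any other form of such a site would be missed. A match is a run of letters and not a measured binding site.

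DDIT4, the stress-induced inhibitor of mTORC1, was the most abundant of the 10 genes per exon length in each of the 8 libraries. In MDA-MB468 its level was 171 CPM in parental control cells, 44.7 CPM with Acetalax, 256 CPM in CE control cells and 80.2 CPM in CE cells with Acetalax. In BT549 the same order of libraries gave 368, 265, 561 and 239 CPM. The treated library lay below its control in all 4 backgrounds, as in 31.0% of genes. The log2 ratio of treated over control was -1.94 (-2.01 to -1.87) in MDA-MB468 parental cells, a level 3.83-fold lower, and -1.67 (-1.73 to -1.62) in MDA-MB468 CE cells. In BT549 it was -0.48 (-0.51 to -0.44) in parental and -1.23 (-1.26 to -1.20) in CE cells, so the smallest decrease was that of the BT549 parental pair. In bulk RNA, fewer cells that express a gene and less RNA of it per cell cannot be told apart.

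**Figure D1:**
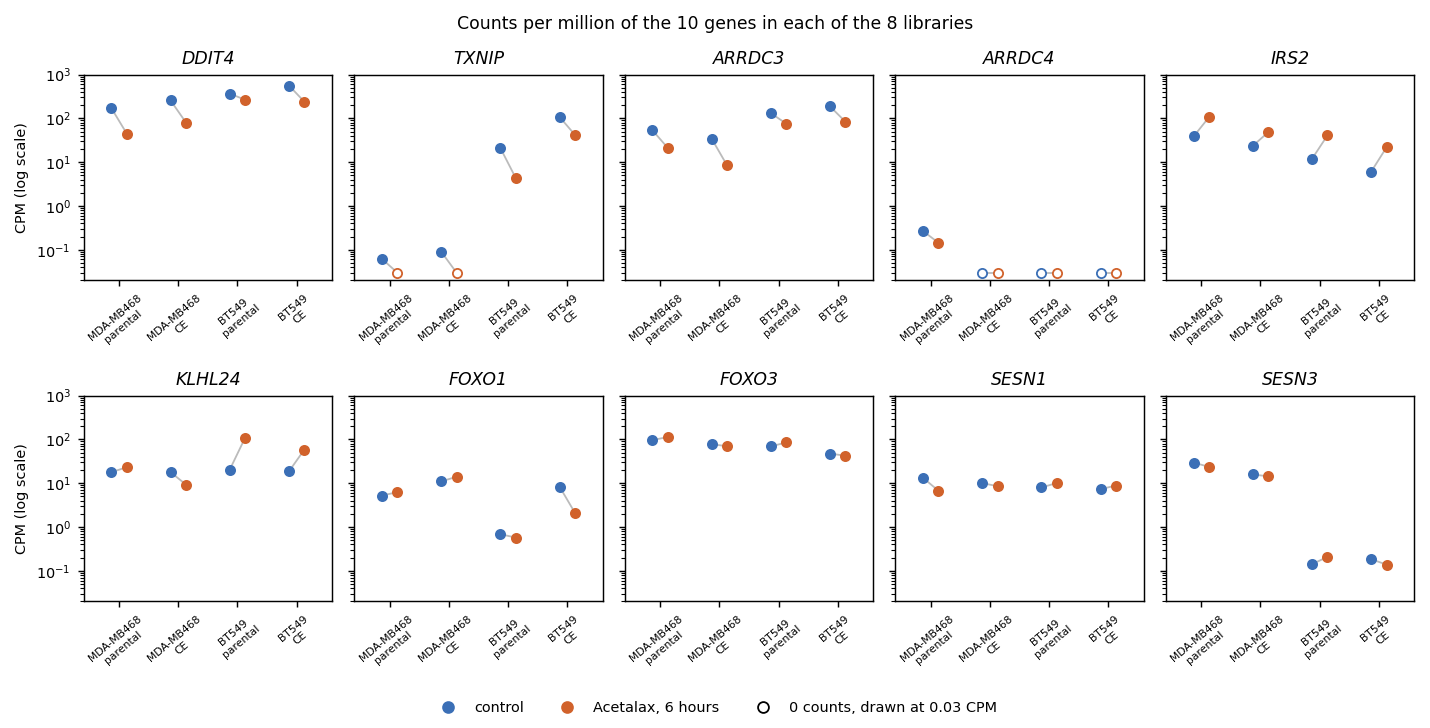
Level of each of the 10 genes in CPM (log axis) in the control (blue) and Acetalax-treated (orange) library of each background, 1 library per point, with a grey line joining the pair; open points are libraries with 0 counts, drawn near the foot of the axis. DDIT4 and ARRDC3 were lower and IRS2 higher in all 4 treated libraries, TXNIP was near the counting limit in MDA-MB468, and SESN3 was near it in BT549.

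TXNIP, which binds thioredoxin and lowers glucose uptake, was all but absent from MDA-MB468, with 3 and 4 counts in the parental and CE controls and 0 counts in both treated libraries. Its row was deposited on a patch sequence, and how reads were shared with chromosome 1 is not given, so the TXNIP levels are uncertain to that extent. In BT549 it had 21.1 CPM in parental control cells, 4.35 CPM with Acetalax, 108 CPM in CE control cells and 42.0 CPM in CE cells with Acetalax. Each treated BT549 library was thus below its control, and the highest TXNIP level of the series was that of the BT549 CE control. The log2 ratio of treated over control was -2.28 (-2.51 to -2.05) in BT549 parental cells, or 4.86-fold lower, and -1.36 (-1.43 to -1.29) in BT549 CE cells. In MDA-MB468 no ratio was formed for parental cells, where both counts were at or under the limit of 3. With the treated library set at that limit, TXNIP was 1.44-fold lower in MDA-MB468 CE cells, and the counting interval of this ratio spans no change.

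ARRDC3, an α-arrestin that leads receptors such as β-adrenergic receptors to NEDD4-type ubiquitin ligases, was lower in each treated library. In MDA-MB468 it measured 53.2 CPM in parental control cells, 21.0 CPM with Acetalax, 34.2 CPM in CE control cells and 8.43 CPM in CE cells with Acetalax. In BT549 these libraries held 131, 75.5, 187 and 83.5 CPM, so all 4 BT549 libraries were above all 4 MDA-MB468 libraries. The log2 ratios were -1.34 (-1.45 to -1.24) in MDA-MB468 parental, -2.02 (-2.18 to -1.86) in MDA-MB468 CE, -0.79 (-0.86 to -0.73) in BT549 parental and -1.16 (-1.21 to -1.11) in BT549 CE cells. In both lines the difference was larger in CE than in parental cells, by point estimate of 1 pair each. ARRDC4, the relative of TXNIP named with it as a MondoA target, had 13 counts in MDA-MB468 parental control cells, 7 counts in the treated parental library and 0 counts in the other 6 libraries. Its only ratio, -0.89, had an interval from -2.46 to 0.54.

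IRS2, the adaptor between insulin or IGF1 receptors and phosphoinositide 3-kinase, was the member that was higher with Acetalax in every background. In MDA-MB468 its level went from 38.5 to 106 CPM in parental cells and from 23.5 to 48.2 CPM in CE cells. In BT549 it went from 11.8 to 40.6 CPM in parental cells and from 6.05 to 21.9 CPM in CE cells. IRS2 was thus higher in all 4 pairs, as were 12.5% of genes. The log2 ratios were 1.46 (1.39 to 1.54) and 1.04 (0.93 to 1.14) in MDA-MB468 parental and CE cells and 1.78 (1.63 to 1.92) and 1.85 (1.67 to 2.04) in BT549 parental and CE cells, that is 2.05- to 3.61-fold. Over the 13076 genes with a ratio in all 4 pairs, 25 were at least 2-fold higher in all 4, or 0.191%.

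KLHL24, a Kelch-like substrate adaptor of a cullin ubiquitin ligase that acts on keratin filaments, differed between the lines. Its 4 control libraries lay close together, with 17.9 CPM in both MDA-MB468 controls, 20.4 CPM in BT549 parental and 18.6 CPM in BT549 CE cells. With Acetalax it reached 110 CPM in BT549 parental and 58.6 CPM in BT549 CE cells, while the MDA-MB468 libraries held 23.2 CPM in parental and 9.29 CPM in CE cells. The treated BT549 libraries were above every other library, and the treated MDA-MB468 CE library was below every other. The log2 ratios were 2.42 (2.32 to 2.53) and 1.65 (1.55 to 1.76) in BT549 parental and CE cells, against 0.38 (0.25 to 0.50) and -0.95 (-1.12 to -0.78) in MDA-MB468 parental and CE cells.

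**Figure D2:**
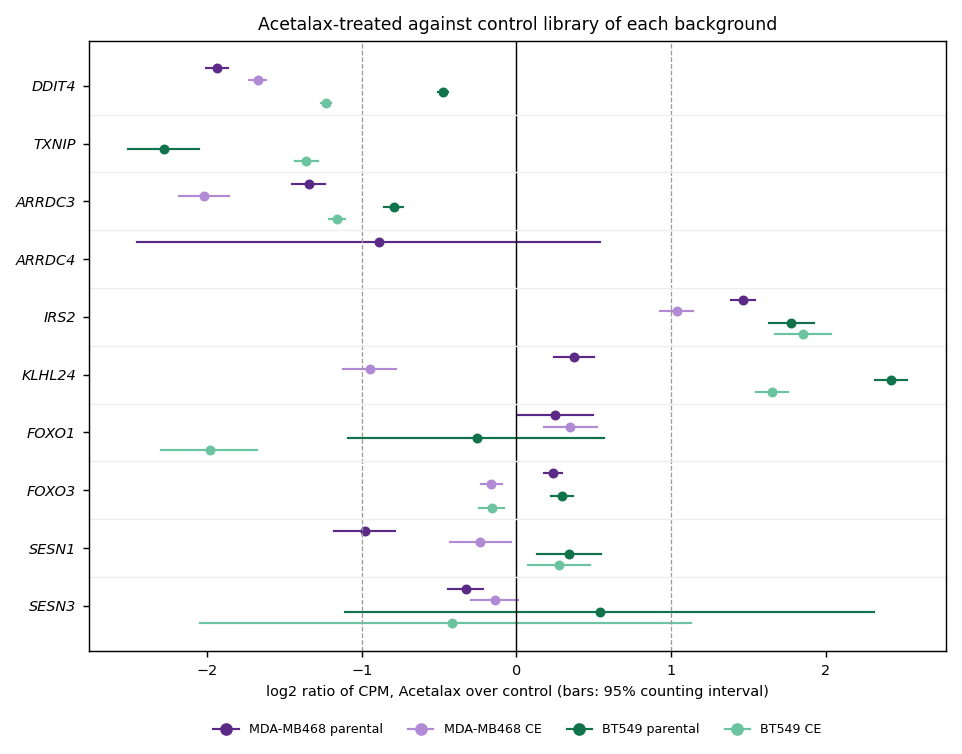
Log2 ratio of CPM, Acetalax over control, for each gene (rows) in the 4 backgrounds (colours), with 95% counting intervals as bars and dashed lines at a 2-fold change; pairs without a ratio have no point. All DDIT4 and ARRDC3 points lie left of 0 and all IRS2 points right of 1, while KLHL24 runs from -0.95 in MDA-MB468 CE to 2.42 in BT549 parental cells.

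FOXO1, a factor that AKT keeps out of the nucleus, was higher in CE than in parental cells. It measured 5.24 CPM in MDA-MB468 parental control cells, 6.24 CPM with Acetalax, 11 CPM in CE control cells and 14.0 CPM in CE cells with Acetalax. In BT549 it was below 1 CPM in parental cells, with 0.69 CPM in the control and 0.57 CPM in the treated library, and stood at 8.37 CPM in CE control and 2.12 CPM in treated CE cells. The CE library was above the parental library of its line and treatment in all 4 comparisons. Under Acetalax the log2 ratio was 0.25 (0.01 to 0.50) and 0.35 (0.18 to 0.52) in MDA-MB468 parental and CE cells, -0.26 (-1.09 to 0.57) in BT549 parental and -1.98 (-2.30 to -1.68) in BT549 CE cells. The BT549 CE pair was therefore the only background in which FOXO1 moved by 2-fold or more with the drug.

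FOXO3 was the more abundant FOXO member and the steadier. Its levels were 96.5, 114, 78.1 and 69.9 CPM in MDA-MB468 (parental control, parental with Acetalax, CE control, CE with Acetalax) and 69.5, 85.2, 47.5 and 42.5 CPM in BT549. The lowest and the highest of the 8 differed 2.68-fold. The Acetalax ratios were 0.24 and 0.29 on the log2 scale in the parental pairs of MDA-MB468 and BT549 and -0.16 in both CE pairs. The sign in the BT549 CE pair depended on the scaling: it was 0.06 with TMM factors, which move the median of all genes in that pair by 0.22.

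The sestrins, which relay stress to the GATOR complexes upstream of mTORC1, had 1 ratio near 2-fold with the drug, that of SESN1 in MDA-MB468 parental cells. SESN1 measured 13.3, 6.73, 10.1 and 8.56 CPM in MDA-MB468 (same order) and 8.00, 10.1, 7.32 and 8.86 CPM in BT549. Its log2 ratio was -0.98 (-1.18 to -0.79) in MDA-MB468 parental and -0.23 (-0.43 to -0.04) in MDA-MB468 CE cells, and 0.34 (0.13 to 0.55) and 0.28 (0.08 to 0.47) in BT549 parental and CE cells. Both MDA-MB468 pairs were thus below 0 and both BT549 pairs above it. SESN3 measured 29.7, 23.6, 15.9 and 14.4 CPM in MDA-MB468, with ratios of -0.33 (-0.44 to -0.21) in parental and -0.14 (-0.29 to 0.01) in CE cells. In BT549 it had 6, 9, 10 and 7 counts, where the intervals of both Acetalax ratios reach beyond 1 on either side of 0, and a change with the drug was not detectable at this depth.

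Counts of members were read beside the same counts over all genes. In MDA-MB468 parental cells 8 members with a mean of at least 1 CPM had a ratio. Of these, 1 was at least 2-fold higher (IRS2), beside 5.20% of genes, and 2 at least 2-fold lower (DDIT4, ARRDC3), beside 4.63%. In MDA-MB468 CE cells the members past 2-fold were IRS2 above (2.64% of genes) and DDIT4 and ARRDC3 below (3.07%). In BT549 parental cells IRS2 and KLHL24 were above (2.33% of genes) and TXNIP below (3.61%). In BT549 CE cells IRS2 and KLHL24 were above (4.65% of genes), and DDIT4, TXNIP, ARRDC3 and FOXO1 were below (14.2%). With TMM factors ARRDC3 was at -0.94 in this pair, short of 2-fold, and the genes past 2-fold went from 633 higher and 1935 lower to 918 higher and 1316 lower. In MDA-MB468 CE cells they went from 361 higher and 420 lower to 439 higher and 341 lower. The median log2 ratio of the members was -0.05, -0.23, 0.29 and -0.41 in MDA-MB468 parental, MDA-MB468 CE, BT549 parental and BT549 CE cells, and the median of all genes was -0.11, -0.06, -0.11 and -0.22. The first of the members' medians turned to 0.032 with TMM factors. The BT549 CE median rests on few counts: it is the SESN3 ratio of 7 against 10 counts. It was -0.20 with TMM factors and -0.16 with a pseudocount of 0.5 CPM. The BT549 parental median is the FOXO3 ratio of 3705 against 2936 counts. With that pseudocount the parental median was 0.14, which is the SESN3 ratio of 9 against 6 counts. DDIT4 and ARRDC3 were lower in all 4 pairs, as were 31.0% of genes, and IRS2 was higher in all 4, as were 12.5%.

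In the fit over all 8 libraries (edgeR quasi-likelihood, 1 Acetalax term, an intercept for each background, Benjamini-Hochberg adjustment) 984 of 19693 genes tested were called at 0.05, or 5.00%, with 536 higher and 448 lower. Among the 9 members tested, IRS2 was called higher (2.72% of genes) and DDIT4, TXNIP and ARRDC3 lower (2.27%), but nothing is read from these calls, since the members were chosen on the same ratios. Without the MDA-MB468 parental pair 0 genes were called, with 3491 at an unadjusted p under 0.05. Without the other pairs the calls numbered 263 (BT549 CE pair left out), 311 (BT549 parental) and 554 (MDA-MB468 CE). A fit of all 8 libraries with separate Acetalax terms for parental and CE cells called 0 genes for each term (0.00%). At an unadjusted p under 0.05 there were 1710 and 2311, while DESeq2 called 75 and 289. No gene was called by either tool for a different response of CE and parental cells, with 91 at an unadjusted p under 0.05 in edgeR.

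Between CE and parental control cells, FOXO1 was at least 2-fold higher in both lines and TXNIP in BT549. FOXO1 was 2.10-fold higher in MDA-MB468 CE cells (log2 ratio 1.07, 0.85 to 1.29) and 12.2-fold higher in BT549 CE cells (3.61, 3.07 to 4.20). The BT549 ratio rests on 29 counts in parental cells, and it was 2.90 and 2.47 with pseudocounts of 0.5 and 1 CPM. TXNIP was 5.11-fold higher in BT549 CE cells (2.35, 2.25 to 2.46), and its 4 against 3 counts in MDA-MB468 allow no statement. ARRDC4 had 0 counts in MDA-MB468 CE against 13 in parental control cells, 3.93-fold lower with the 0 set at 3 counts. The counting interval of that log2 ratio reached up to -1.47. In both BT549 controls ARRDC4 had 0 counts. DDIT4 was higher in CE cells of both lines, by 0.58 (0.54 to 0.62) in MDA-MB468 and 0.61 (0.58 to 0.64) in BT549 on the log2 scale. ARRDC3 was lower in CE cells of MDA-MB468, at -0.64 (-0.73 to -0.55), and higher in those of BT549, at 0.51 (0.46 to 0.56).

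IRS2 went the other way from FOXO1, with CE over parental log2 ratios of -0.71 (-0.83 to -0.60) in MDA-MB468 and -0.97 (-1.17 to -0.76) in BT549. FOXO3 was also lower in CE cells, at -0.31 (-0.37 to -0.24) and -0.55 (-0.63 to -0.47). SESN3 was 1.87-fold lower in MDA-MB468 CE cells, at -0.90 (-1.04 to -0.77). SESN1 stood at -0.40 (-0.58 to -0.22) in MDA-MB468 and at -0.13 (-0.34 to 0.09) in BT549, and KLHL24 at 0.01 and -0.13, so KLHL24 control levels were nearly the same in parental and CE cells.

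The treated libraries gave CE over parental ratios of the same sign for FOXO1, IRS2 and FOXO3. FOXO1 was 2.24-fold higher in MDA-MB468 and 3.68-fold higher in BT549. IRS2 was 2.20-fold and 1.86-fold lower, and FOXO3 1.63-fold and 2.01-fold lower, in treated CE cells of MDA-MB468 and BT549. KLHL24, level with parental cells in the controls, was 2.49-fold lower in treated CE cells of MDA-MB468 and 1.87-fold lower in those of BT549. TXNIP was 9.67-fold higher in treated BT549 CE than in treated BT549 parental cells. DDIT4 was 1.79-fold higher in treated MDA-MB468 CE cells, at 0.84 (0.77 to 0.92), but at -0.15 (-0.18 to -0.11) in BT549. These ratios share their libraries with the Acetalax ratios above.

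**Figure D3:**
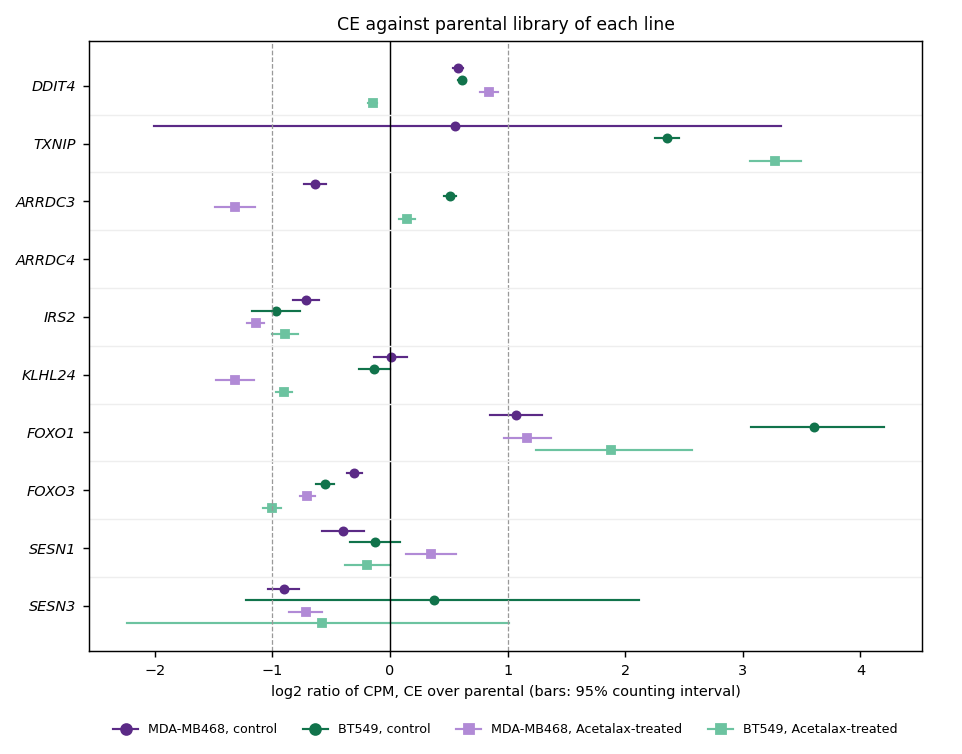
Log2 ratio of CPM, CE over parental cells, for each gene (rows) in control libraries (circles) and Acetalax-treated libraries (squares) of MDA-MB468 (purple) and BT549 (green), with 95% counting intervals as bars. All 4 FOXO1 points lie right of 1, all 4 points of IRS2 and of FOXO3 lie left of 0, and the KLHL24 circles sit near 0 while its squares lie at -1.32 in MDA-MB468 and -0.90 in BT549.

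Of the members with a mean of at least 1 CPM, FOXO1 was at least 2-fold higher in CE cells of MDA-MB468 (3.00% of genes, and 0.94 on the log2 scale with a pseudocount of 1 CPM), FOXO1 and TXNIP were in BT549 (8.56%), and no member was at least 2-fold lower in either line (2.43% and 6.49% of genes). The members' median ratio was -0.31 in MDA-MB468 and 0.38 in BT549, beside 0.04 and -0.04 for all genes. The BT549 value is the SESN3 ratio of 10 against 6 counts, and it was 0.092 with a pseudocount of 0.5 CPM. Of all genes, 28.6% were higher in both lines and 25.5% lower in both. The fit of the 4 control libraries called 0 of 18377 genes (edgeR, 1 residual degree of freedom, 0.00%), with 610 at an unadjusted p under 0.05, while DESeq2 called 46.

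Between the lines, the strongest contrasts were TXNIP and SESN3, in opposite directions. TXNIP in BT549 over MDA-MB468 had a log2 ratio of 8.42 (6.87 to 10.70) in parental control cells and of 10.22 (8.86 to 12.09) in CE control cells. With the 0 of MDA-MB468 set at 3 counts, TXNIP was 70.4-fold higher in treated parental and 666-fold higher in treated CE cells. The counting intervals of these 2 ratios reached down to 56.7-fold and 541-fold. SESN3 was 209-fold lower in BT549 in parental control cells, 114-fold lower in treated parental cells, 86-fold lower in CE control cells and 104-fold lower in treated CE cells. FOXO1 was 7.64-fold lower in BT549 than in MDA-MB468 parental control cells and 1.32-fold lower between the CE controls, and 10.9-fold and 6.62-fold lower between the treated parental and the treated CE libraries. The 4 libraries of BT549 were all above those of MDA-MB468 for TXNIP and ARRDC3, as for 23.5% of genes, and all below for SESN3, as for 32.7%. In the edgeR fit of the line term 11188 genes were called (56.8%), and 7 of the 9 members tested were among them, with DDIT4, TXNIP and ARRDC3 higher in BT549 (27.3% of genes) and FOXO1, FOXO3, IRS2 and SESN3 lower (29.5%). This fit took the 4 conditions as replicates, although the libraries of a line share their source.

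Levels compared between genes are given as FPKM, which divides CPM by the length of the merged exons in kilobases. DDIT4 led in each library, from 21.7 to 273 FPKM. In MDA-MB468 the next was FOXO3 in all 4 libraries, with a mean of 11.7 ± 2.55 FPKM (SD over 4 libraries of different conditions), and in BT549 it was ARRDC3 in all 4, with 23.9 ± 10.3 FPKM. In MDA-MB468 the ranges of mean ± SD of IRS2 (6.63 ± 4.44 FPKM) and ARRDC3 (5.86 ± 3.84 FPKM) overlapped. So did those of KLHL24 (1.97 ± 0.66), SESN3 (1.97 ± 0.67), FOXO1 (1.53 ± 0.69) and SESN1 (1.33 ± 0.38). Each SD holds the differences between conditions, so an overlap does not show that genes were level within a library. ARRDC3 was above IRS2 in both MDA-MB468 controls and below it in both treated MDA-MB468 libraries, and SESN3 was above SESN1 in all 4. In BT549 TXNIP (12.2 ± 12.6 FPKM), FOXO3 (7.97 ± 2.59) and KLHL24 (5.99 ± 4.94) overlapped in the same way, as did IRS2 (2.46 ± 1.86), SESN1 (1.18 ± 0.17) and FOXO1 (0.49 ± 0.62). Here KLHL24 was below FOXO3 in both BT549 controls and above it in both treated BT549 libraries. SESN3 (0.0159 ± 0.0032) and ARRDC4 (0 in all 4) closed the order.

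The relatives of the 10 genes did not all move with them. These genes are named as family members, after their values were seen. IRS1, the paralog of IRS2, had Acetalax log2 ratios of 1.33 and 1.26 in MDA-MB468 parental and CE cells but -0.80 and -0.38 in BT549 parental and CE cells, at levels between 27.8 and 90.7 CPM over the 8 libraries. FOXO4 was at -0.93, -0.73, 0.04 and -0.80 (MDA-MB468 parental, MDA-MB468 CE, BT549 parental, BT549 CE). FOXO6, measurable in MDA-MB468 with 50.4 and 49.8 CPM in the controls, had 19.4 and 19.8 CPM in the treated libraries, and was the only call among 8 paralogs tested in the 4-pair fit (edgeR quasi-likelihood log2 fold change -1.28, adjusted p = 0.0286). In BT549 it did not exceed 0.12 CPM. SESN2, the stress-induced sestrin, had ratios of 0.22, -0.27, 0.16 and 1.49 in the same order, the last from 34.5 to 97.1 CPM in BT549 CE cells. ARRDC2 was at 0.33, 0.19, -0.30 and -1.27, and ARRDC1 between -0.03 and 0.54.

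**Figure D4:**
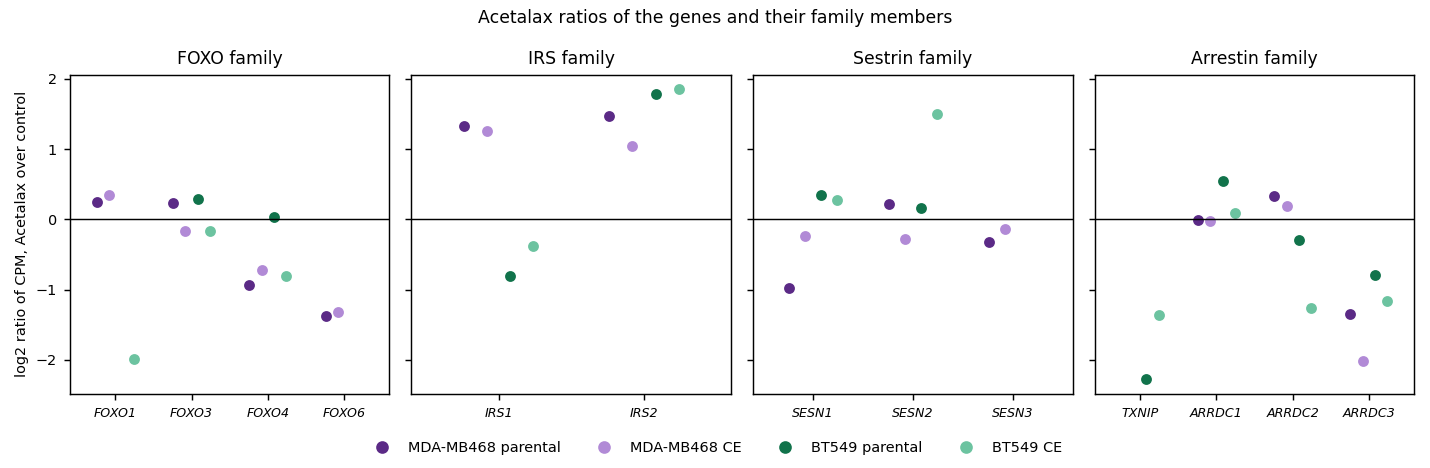
Log2 ratio of CPM, Acetalax over control, for FOXO, IRS, sestrin and arrestin family members in the 4 backgrounds (colours), drawn where at least 1 library of the pair reached 1 CPM. IRS2 points all lie above 1 while IRS1 points lie above 0 in MDA-MB468 and below 0 in BT549, and ARRDC3 lies below 0 in every background while ARRDC1 and ARRDC2 do not.

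Other genes of the pathways were read from fixed lists, with the calls of the 4-pair Acetalax fit (edgeR, Benjamini-Hochberg over 19693 genes), in which 2.72% of all genes were called higher and 2.27% lower. The lists too were chosen with earlier results known, so their counts are no independent evidence. Of 17 FOXO target genes tested, RBL2 (a retinoblastoma relative that holds cells in quiescence) and TNFSF10 (the death ligand TRAIL) fell and none rose (2.27% and 2.72% of all genes). IRS2 and CDKN1A, also described as FOXO targets, were not on that list. RBL2 had an edgeR log2 fold change of -0.63 (adjusted p = 0.0377). TNFSF10, outside the naming rule and named after its values were seen, went from 100.2 to 12.9 CPM in MDA-MB468 parental and from 129 to 13.2 CPM in MDA-MB468 CE cells and stayed at or below 0.34 CPM in BT549. CAT (catalase) was lower in all 4 pairs but missed the threshold (-0.40, adjusted p = 0.0503), and GABARAPL1 (an autophagy protein) was higher in all 4 (0.60, adjusted p = 0.0778). The median ratio of the FOXO targets was -0.16, -0.46, 0.05 and -0.51 in the 4 pairs.

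Upstream of FOXO, 3 of 14 genes between insulin and AKT were called, 2 higher and 1 lower (2.72% and 2.27% of all genes). SGK1, a kinase related to AKT that also phosphorylates FOXO factors, rose (1.77, adjusted p = 0.0286), with pair ratios of 1.62, 1.12, 1.41 and 2.49 (MDA-MB468 parental, MDA-MB468 CE, BT549 parental, BT549 CE). PHLPP2, a phosphatase of AKT, rose (0.55, adjusted p = 0.0499), and PIK3R1, the regulatory subunit of phosphoinositide 3-kinase that binds IRS proteins, fell (-1.43, adjusted p = 0.0307), with ratios of -2.23, -1.51, -0.91 and -1.44. The naming rule takes genes with 1 sign in all 4 pairs, so that the shared sign is no result. PIK3CB was at -0.39 (adjusted p = 0.129).

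Downstream of DDIT4 and the sestrins, 0 of 19 genes of mTORC1 and its amino acid and TSC inputs were called, and among them NPRL2 (-0.49, adjusted p = 0.0619) and MTOR (-0.33, adjusted p = 0.0739) were lower and SEH1L (0.60, adjusted p = 0.0624) and RHEB (0.32, adjusted p = 0.0703) higher in all 4 pairs. None of 10 AMPK genes was called, with STRADA (-0.91, adjusted p = 0.0588) and PRKAA1 (-0.37, adjusted p = 0.0545) lower in all 4 pairs. None of 9 genes of MondoA, MLX and thioredoxin was called. MLXIP, which encodes MondoA, had 35.4 to 57.1 CPM in the controls of both lines and was at 0.41 (adjusted p = 0.0689), TXNRD1 was at 0.54 (adjusted p = 0.0655), HK1 at -0.09 (adjusted p = 0.538) and HK2 at -0.17 (adjusted p = 0.343).

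Among 7 ligases of the NEDD4 type, the partners of α-arrestins, NEDD4L (1.14, adjusted p = 0.0398), SMURF1 (0.80, adjusted p = 0.0432) and SMURF2 rose and none fell, beside 2.72% of all genes called higher. SMURF2, outside the naming rule, had pair ratios of 1.28, 0.62, 0.24 and 1.23 in the order above. WWP1 was at 0.04 (adjusted p = 0.822). None of these list calls was made without the MDA-MB468 parental pair, where no gene was called.

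Genes whose levels most resembled those of each member over the 8 libraries, after centring within each line, were found among 11126 genes of at least 5 CPM. These are descriptions over 8 libraries that share 2 lines and 4 conditions. KLHL24 was most like LUC7L3 (r = 0.99), a splicing factor, and CREBRF (r = 0.99), a regulator of CREB3 transcription factors, and CREBRF also had pair ratios of 1.02, -1.20, 2.88 and 2.09. DDIT4 was most like GSS (r = 0.99), glutathione synthetase, and CREB3L4 (r = 0.98), a membrane-bound transcription factor. ARRDC3 was most like RGL2 and FLOT1 (r = 0.99 and 0.98), IRS2 like TMEM170A and SLC16A1-AS1 (0.98 and 0.98), FOXO1 like SLC26A11 and HOXC13-AS (0.99 and 0.98), FOXO3 like CPSF6 and ZNF420 (0.98 and 0.98) and SESN1 like UBAP2L and CDC23 (0.96 and 0.96). TXNIP resembled PTPRD and TRIQK (1.00 and 0.99) and SESN3 resembled SLC34A2 and PI3 (0.99 and 0.98), and these rest on the 4 libraries of 1 line, since in the other line the member was near 0. Without centring, LUC7L3 and CREBRF stayed among the 3 genes most like KLHL24 (ranks 3 and 1).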

How the data were processed

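The authors aligned paired reads of poly(A)-selected, directional libraries to hg19 with STAR (2.7.11b in the submitters' processing notes) and deposited raw counts per gene from its GeneCounts option. The strand column and the annotation are not given in the sources used here, so reads of overlapping genes on opposite strands cannot be told apart. The deposited counts have 58154 rows for 55679 identifiers, each kept once. Repeats differed for 3 identifiers, none a member.

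Conditions were taken from the sample labels. CPM uses the total count on genes, and FPKM adds merged exon lengths of the hg19 GENCODE annotation. Ratios in a pair were computed without a pseudocount. A library at 0 was set to 3 counts, and no ratio was formed where both counts were at or under 3. Counting intervals used the 0 itself. Genes with a mean under 1 CPM were left out of the all-gene counts. Models were fitted with edgeR 4.0.16 (R 4.3.3, quasi-likelihood, TMM, filterByExpr, Benjamini-Hochberg at 0.05). Only the 4-pair Acetalax fit was also run on simulated counts. These had no difference between backgrounds and less spread than the data, so that run does not vouch for the fits. In the 4-pair Acetalax fit the 4 backgrounds served as replicates, although the parental and CE cells of a line share their source. Its p-values measure the spread between these backgrounds. The separate terms for parental and CE cells and the fit of the control libraries had the 2 lines as replicates. In the line fit the 4 conditions served as replicates, although the libraries of a line share their source. Nothing in the labels gives separate cultures of a condition.

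The members and lists were chosen with earlier results of these data known. Besides the members, each list names the genes with the 2 highest and 2 lowest smallest ratios among those of at least 1 CPM with 1 sign in all 4 Acetalax pairs, and each member the 2 genes most like it in log2(CPM + 0.5), centred by line. Exceptions are said where they occur. The alternatives were RLE scaling, DESeq2 1.42.0, no filter, other pseudocounts and leaving out a pair. SOD2 and PECAM1 were not analysed here. Promoter windows are from RefSeq (GRCh38.p14) and matched 10 of 10 members. Depth was 42261122 to 54241728 counts per library.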

Additional observations from a re-analysis of the deposited data

Results flagged for a closer look

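SESN1 had Acetalax ratios below 0 in both MDA-MB468 pairs and above 0 in both BT549 pairs, and the mean of the former minus that of the latter was -0.91 on the log2 scale. FOXO1 had ratios above 0 in both MDA-MB468 pairs and below 0 in both BT549 pairs, with a difference of 1.42, and the ratio of the BT549 parental pair (29 and 25 counts) lay within counting error of 0. FOXO3 was higher with Acetalax in both parental pairs and lower in both CE pairs, with a difference of parental minus CE of 0.43, but the BT549 CE ratio turned positive under other scalings. These differences were drawn to attention because every pair of a group lay on 1 side of 0. The differences were not tested.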

How the results depend on the processing

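Calls are given first. For Acetalax over the 4 pairs DESeq2 called 2684 genes and edgeR without a filter 3585, against 984. Leaving out a pair gave 0 to 554. For parental cells the counts were 75 (DESeq2), 643 (no filter) and 0 to 182 (a pair left out), for CE cells 289, 1080 and 0 to 207, and for the different response 0, 3 and 0 to 2. For CE against parental controls DESeq2 called 46, edgeR without a filter 45 and the CE term over all 8 libraries 23. The line calls stayed within 1.5 times. The leave-one-out runs of the last 3 Acetalax terms were chosen after seeing the data, and where a background was left with 1 pair of its kind it was assumed to vary like the others. The call count over the 4 pairs fell whichever pair was left out, each time with fewer libraries in the fit. It was 0 without the MDA-MB468 parental pair, where 3491 genes had an unadjusted edgeR p under 0.05. Without the BT549 CE pair 3970 genes had such a p, so the 0 does not show that 1 pair decided the calls. The cause was not tested.

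The members' median ratio in MDA-MB468 parental cells turned from -0.05 to 0.032 with TMM and to 0.030 with DESeq2 size factors, and was -0.17 with a pseudocount of 0.5 CPM. In BT549 parental cells it was 0.14 and 0.080 with pseudocounts of 0.5 and 1 CPM. In BT549 CE cells it was -0.20 (TMM), -0.21 (DESeq2 size factors), -0.16 (0.5 CPM) and -0.16 (1 CPM), and for CE against parental BT549 it was 0.092 and 0.053 with the pseudocounts. FOXO3 in the BT549 CE pair turned to 0.055 (TMM) and 0.042 (DESeq2 size factors). Of 208 alternative values for single members over 52 ratios, 176 moved by less than the counting interval, 30 by more, and the 2 of FOXO3 changed sign beyond it. KLHL24 in CE against parental MDA-MB468 also changed sign, within its counting interval, from 0.0056 to -0.056 (TMM) and -0.045 (DESeq2 size factors). With a mean of at least 5 CPM the genes past 2-fold numbered 806, 438, 446, 392 and 1340 (Acetalax in MDA-MB468 parental, MDA-MB468 CE and BT549 parental, CE against parental in MDA-MB468 and BT549), since fewer genes were counted. With a pseudocount of 0.5 CPM they numbered 474 (MDA-MB468 CE), 369 (BT549 parental) and 462 (CE against parental in MDA-MB468). Without centring LUC7L3 and CREBRF (KLHL24), HOXC13-AS (FOXO1) and PI3 (SESN3) stayed among the 3 genes most like their member, and the other genes named did not.

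Each treated library was set against the control of its background, and a further block by replicate number could not be fitted, since the labels give none. Counting error is small for members above 5 CPM, but it limits TXNIP and ARRDC4 in MDA-MB468, SESN3 and ARRDC4 in BT549 and FOXO1 in BT549 parental cells. Culture-to-culture variation within a condition was not measured.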

Other observations

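Lists that border on FOXO and energy stress were read in the 4-pair Acetalax fit (edgeR, Benjamini-Hochberg). That fit called 2.72% of all genes higher and 2.27% lower. Of 10 p53 targets, CDKN1A, the cyclin-dependent kinase inhibitor p21 and also a FOXO target, rose (log2 fold change 1.54, adjusted p = 0.0424), with pair ratios of 2.77, 0.62, 1.15 and 1.29 in MDA-MB468 parental, MDA-MB468 CE, BT549 parental and BT549 CE cells. XPC was at -0.54 (adjusted p = 0.0629) and RPS27L at -0.05 (adjusted p = 0.806). Of 7 glucocorticoid receptor targets tested, PER1, a clock gene (1.47, adjusted p = 0.0432), and MT2A, a metallothionein (0.49, adjusted p = 0.0363), rose, while TSC22D3 (GILZ) was at -1.26 (adjusted p = 0.101) and was lower in all 4 pairs.

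Of 8 ATF4 targets, VLDLR, a lipoprotein receptor, fell (-0.65, adjusted p = 0.0424). The median of that list was -0.50 and -0.93 in MDA-MB468 parental and CE cells and 0.37 and 1.18 in BT549 parental and CE cells, beside medians of all genes of -0.11, -0.06, -0.11 and -0.22, and no test of the lines against each other was run. None of 8 HIF1A targets was called, with BNIP3 at -0.30 (adjusted p = 0.189) and ADM at 1.13 (adjusted p = 0.140). In control cells the median of the HIF1A targets was 0.47 higher in MDA-MB468 CE and 1.92 higher in BT549 CE than in parental cells, on the log2 scale. All calls named here were lost when the MDA-MB468 parental pair was left out.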
